A study of Rattus norvegicus with 6 samples.

Results

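The subject here is a set of 10 genes that mark astrocytes, read in adult rat hippocampal neural stem cells (NSCs) held under bone morphogenetic protein 4 (BMP4). The genes are *Gfap*, *Aqp4*, *S100b*, *Gja1*, *Aldh1l1*, *Slc1a2*, *Glul*, *Cd44*, *Slc4a4* and *Sparcl1*. They were taken by symbol, as astrocyte markers that BMP4 can induce in NSCs, and all 10 were found among the 17315 rows of the expression tables. The NSCs are a cloned line from the hippocampus of adult rats. One group was transfected with a negative control siRNA duplex (siControl NSCs) and the other with a single duplex against *Derl1* (siDerl1 NSCs), which encodes Derlin-1, a membrane protein of the endoplasmic reticulum that takes part in the degradation of misfolded proteins. All samples then had 2 days in proliferation medium, followed by 2 days with basic fibroblast growth factor (10 ng/mL) and BMP4 (50 ng/mL), the quiescence condition. There were 3 samples in each of the 2 groups, numbered 1 to 3. Every sample received BMP4, so the values are levels under BMP4, and no comparison with untreated NSCs was made. Each value is a gene's TPM, its length-corrected share of all transcripts, scaled to sum to 1000000 in each sample, and the sequencing depth behind it is unknown.

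Astrocytes take up glutamate and potassium from around neurons, are joined by gap junctions and are filled with intermediate filaments. BMP ligands signal through receptor kinases to SMAD proteins, which induce the *Id* genes and, together with STAT3, astrocyte genes such as *Gfap*. In cultured hippocampal NSCs, BMP4 in the presence of fibroblast growth factor brings cells out of the cell cycle, while BMP without it is known to favour astrocyte differentiation. Several markers of astrocytes, *Gfap*, *Slc1a3* and *Sox9* among them, are also used by radial glia-like stem cells, and *S100b* and *Glul* are also found in oligodendrocyte lineage cells.

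The start regions of the 4 most abundant genes are shown first, because the results turn on these genes. RefSeq start regions (assembly GRCr8) were matched by symbol for all 10 genes, in 13 windows. The reads behind the TPM values were mapped to rn6, and no position is carried between the builds. Each line gives the 250 bases before an annotated start, 5′ to 3′ on the strand of the gene. Capitals mark exact matches, on either strand, to 5 motifs: STAT (TTCNNNGAA), a GC-rich SMAD element (GGCGCC), one arm of the NFI site (TTGGC), SOX (AACAAT) and the TATA box (TATAAA). *Gfap* lies on the minus strand at chr10:88361662-88361911, *S100b* on the minus strand at chr20:12381082-12381331, *Cd44* on the minus strand at chr3:109699425-109699674, and the *Glul* start shown on the plus strand at chr13:68575816-68576065.
Gfap: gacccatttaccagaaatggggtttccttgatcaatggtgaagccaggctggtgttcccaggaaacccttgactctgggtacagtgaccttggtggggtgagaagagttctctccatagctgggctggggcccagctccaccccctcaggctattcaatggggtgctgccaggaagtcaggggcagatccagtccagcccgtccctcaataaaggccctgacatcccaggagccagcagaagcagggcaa
S100b: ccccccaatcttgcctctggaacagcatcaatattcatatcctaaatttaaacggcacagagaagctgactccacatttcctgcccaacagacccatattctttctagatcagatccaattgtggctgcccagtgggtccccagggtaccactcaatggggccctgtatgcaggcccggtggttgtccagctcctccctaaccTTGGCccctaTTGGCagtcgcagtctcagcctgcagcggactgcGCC
Glul: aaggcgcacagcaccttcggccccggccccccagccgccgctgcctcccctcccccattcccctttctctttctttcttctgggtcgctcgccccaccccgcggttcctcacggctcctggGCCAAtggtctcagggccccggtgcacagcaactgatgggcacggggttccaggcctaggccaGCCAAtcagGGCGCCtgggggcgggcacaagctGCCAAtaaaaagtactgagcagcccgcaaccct
Cd44: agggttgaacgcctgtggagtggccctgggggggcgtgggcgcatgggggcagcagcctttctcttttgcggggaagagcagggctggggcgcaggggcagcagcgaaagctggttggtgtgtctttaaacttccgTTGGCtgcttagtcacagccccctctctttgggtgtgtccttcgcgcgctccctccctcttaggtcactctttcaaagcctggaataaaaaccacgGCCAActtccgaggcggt

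The *Gfap* window held none of the 5 motifs. The *S100b* window held the NFI letters 3 times, the last of them running past the start. The *Glul* window held the NFI letters 3 times and the SMAD element once, and that of *Cd44* held the NFI letters at 2 places. Over the 13 windows the NFI letters were in 6, against 45.8% of all 33469 windows of 300 bases in the reference, and the SMAD element was in 2, against 11.0%. The STAT and TATA letters were in 0 of the 13 windows, against 8.87% and 14.2% of all windows, and the SOX letters in 1, that of *Sparcl1*, against 11.7%. These are matches of letters only.

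The levels of the 10 genes spanned from 708 TPM to 0. *S100b*, a calcium-binding protein, was the most abundant, at 445 to 708 TPM, and ranked 253 among all rows by mean TPM. *Glul*, glutamine synthetase, and *Cd44*, the hyaluronan receptor, followed at 179 to 292 and 156 to 236 TPM. *Gfap*, the astrocyte intermediate filament protein, was at 27.7 to 66.3 TPM. These 4 genes made up between 98.4% and 99.5% of the summed TPM of the 10 in each sample.

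The next 3 genes were low. *Gja1*, which encodes the gap junction protein connexin 43, was at 3.70 to 7.26 TPM, *Slc1a2*, the glutamate transporter GLT-1, at 1.0 to 5.96 TPM, and *Sparcl1*, the secreted protein hevin, at 1.16 to 2.98 TPM. The last 3 stayed under 1 TPM in all 6 samples. *Aqp4*, the water channel of astrocyte endfeet, reached at most 0.20 TPM. *Slc4a4*, a sodium bicarbonate cotransporter, reached 0.25 TPM and *Aldh1l1*, a folate enzyme widely used as a general astrocyte marker, 0.13 TPM, with *Aldh1l1* listed at 0 in 4 samples and *Slc4a4* in 2. The name astrocyte genes therefore covers 4 transcripts above 20 TPM and 3 that were hardly present under these conditions.

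In that order of levels, most neighbours were set apart in every sample. *S100b* was above *Glul*, *Cd44* above *Gfap*, *Gfap* above *Gja1*, *Gja1* above *Slc1a2* and *Sparcl1* above *Aqp4* in 6 of 6 samples. *Glul* and *Cd44* could not be ordered, with *Glul* higher in 3 of the 6, and *Slc1a2* was above *Sparcl1* in 4. The order of *Aqp4*, *Slc4a4* and *Aldh1l1* was within their spread.

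**Figure D1:**
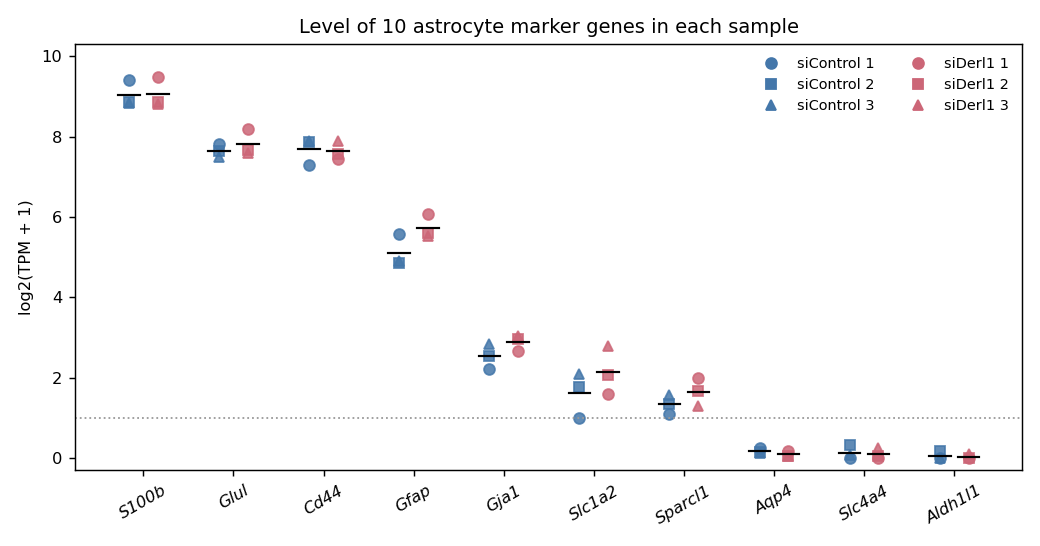
Level of the 10 genes in each sample on the log2(TPM + 1) scale (vertical axis), with colour for the siRNA group, symbol for the sample number, short bars for the mean of 3 samples, and a dotted line at 1 TPM. *S100b*, *Glul*, *Cd44* and *Gfap* lie far above the line, and *Aqp4*, *Slc4a4* and *Aldh1l1* lie under it in all 6 samples.

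The cells were checked against marker genes of other types. The NSC markers *Sox2* (445 to 565 TPM), *Nes* (99.4 to 137 TPM) and *Vim* (3008 to 5044 TPM) were abundant, while *Pax6* (2.24 to 4.88 TPM) and *Hes5* (4.62 to 35.4 TPM), of the same list of 9, were lower. Genes of dividing cells were abundant as well, *Mki67* at 77.0 to 94.0 TPM included. Of the oligodendrocyte lineage genes, *Sox10* (541 to 787 TPM) and *Mbp* (245 to 340 TPM) were high, while *Mog* was listed at 0 in all samples and *Cspg4* and *Mag* stayed under 1 TPM. Of 9 microglia markers 7 stayed under 1 TPM in every sample, as did 8 of 10 vascular and fibroblast markers. In bulk RNA, fewer cells that express a gene and less of its RNA per cell cannot be told apart. Neuron genes summed to between 145 and 176 TPM, and ependymal genes to between 5.35 and 10.5 TPM. Of the 4 neuron genes tested, *Dcx* and *Syt1* were lower in siDerl1 NSCs by the fold limit of the study's methods (below 0.8). The limit was taken here with an unadjusted p under 0.05 from limma, and 1.37% of all genes tested passed it. *Tubb3*, the neuronal tubulin, was at 58.8 to 74.9 TPM in siControl and at 76.3 to 83.2 TPM in siDerl1 NSCs (log2 fold change 0.21, adjusted p = 0.763 from limma). The targeted gene *Derl1* was at 122, 132 and 128 TPM in siControl samples 1, 2 and 3 and at 44.9, 70.8 and 74.0 TPM in the siDerl1 samples (log2 fold change −1.03, adjusted p = 0.497 from limma, and 0.00884 with the sample number as a block). The call with the block was lost without an intensity trend (adjusted p = 0.229) and without the filter on low values (0.104). Along the first principal component (55.7% of the variance) the samples numbered 1 of both groups stood away from the remaining 4. Between the samples of the same number the deviations from the group means were correlated. Differences between the groups are therefore also given with the number as a block. For siControl sample 2 the correlation was 0.35 with siDerl1 sample 2 and 0.34 with siDerl1 sample 3, so numbers 2 and 3 were hardly told apart. The labels do not say whether the samples came from separate cultures, so p-values measure only the spread between these samples.

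The first question was whether the astrocyte genes differed between siDerl1 and siControl NSCs. *Gfap* was higher in siDerl1 NSCs within each sample number and passed the study's limits and, with the block, the adjusted p. Of the other 6 genes tested, 0 passed either. *Gfap* was at 47.0, 27.7 and 28.9 TPM in siControl samples 1, 2 and 3 and at 66.3, 47.5 and 45.3 TPM in siDerl1 samples 1, 2 and 3. The groups overlapped, since siControl sample 1 was above siDerl1 sample 3, but each siDerl1 sample was above the siControl sample of its own number. The means were 34.5 ± 10.8 and 53.0 ± 11.5 TPM (SD, n = 3 each), a ratio of 1.54. The log2 fold change was 0.62 (standard error 0.23, 95% interval 0.09 to 1.16, adjusted p = 0.704 from limma), and 0.49, 0.76 and 0.63 within numbers 1, 2 and 3. The exact permutation test gave a two-sided p of 0.2, where 3 samples against 3 cannot go below 0.1.

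With the sample number as a block, the *Gfap* difference had a standard error of 0.08 (95% interval 0.44 to 0.81) and an adjusted p of 0.0219 from limma. It was 1 of 20 genes higher at an adjusted p under 0.05 in that fit, 0.194% of the 10331 genes tested, beside 37 lower genes, 0.358%. Without the block, limma called 0 genes at an adjusted p under 0.05 (0% of those tested), while 276 higher and 416 lower genes had an unadjusted p under 0.05. The limits of the study's methods are a fold above 1.5 or below 0.8, taken here with an unadjusted p under 0.05. The study used edgeR, while here the limits were applied to the limma fit, so the calls can differ. *Gfap* was the only one of the 7 genes tested to pass these limits, where 0.532% of all genes tested were higher and 1.37% lower. The call with the block was lost in fits without an intensity trend (adjusted p = 0.229) and without the filter on low values (adjusted p = 0.111), which were tried after the data had been seen. With siControl sample 2, siControl sample 3 or siDerl1 sample 1 left out, *Gfap* did not pass the study's limits, at log2 fold changes of 0.49, 0.52 and 0.46. Without both samples numbered 1 its adjusted p was 0.0458 at 0.69.

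*S100b* showed no such difference. It was at 679, 463 and 455 TPM in siControl samples 1, 2 and 3 and at 708, 467 and 445 TPM in the siDerl1 samples. Samples of the same number lay close together, and the samples numbered 1 were above the other 4 in both groups. The log2 fold change was 0.01, with a 95% interval of −0.49 to 0.52 and, with the block, of −0.08 to 0.11 (adjusted p = 0.993 and 0.910 from limma). The narrower interval leaves out differences as large as that of *Gfap*.

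*Glul* converts glutamate to glutamine. It was at 225, 198 and 179 TPM in siControl samples 1, 2 and 3 and at 292, 202 and 191 TPM in the siDerl1 samples. The groups overlapped, sample 1 was the highest in each, and siDerl1 NSCs were higher within each number, by 0.38, 0.03 and 0.10 on the log2 scale. The log2 fold change was 0.17 (95% interval −0.22 to 0.56, and 0.01 to 0.32 with the block), with adjusted p values from limma of 0.898 and, with the block, 0.290. *Cd44* was at 156, 232 and 236 TPM in siControl and at 173, 188 and 236 TPM in siDerl1 samples 1, 2 and 3. The direction differed between the numbers, at 0.15, −0.30 and 0.00 on the log2 scale. The log2 fold change was −0.05 (95% interval −0.48 to 0.38, adjusted p = 0.973 from limma).

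The low genes gave positive differences with wide intervals. *Slc1a2* was at 1.0, 2.42 and 3.31 TPM in siControl and at 2.05, 3.19 and 5.96 TPM in siDerl1 samples 1, 2 and 3, higher in siDerl1 NSCs within each number, with overlapping groups. Its log2 fold change was 0.53 (95% interval −0.39 to 1.45, adjusted p = 0.844 from limma and 0.248 with the block). *Gja1* was at 3.70, 4.85 and 6.20 TPM in siControl and at 5.32, 6.84 and 7.26 TPM in siDerl1 samples 1, 2 and 3. It too was higher within each number, by 0.43, 0.42 and 0.20 on the log2 scale, and the groups overlapped. The log2 fold change was 0.35 (95% interval −0.14 to 0.84, adjusted p = 0.782, and 0.328 with the block, from limma). *Sparcl1* was at 1.16, 1.56 and 1.99 TPM in siControl and at 2.98, 2.17 and 1.47 TPM in siDerl1 samples 1, 2 and 3, with no shared direction (log2 fold change 0.30, 95% interval −0.30 to 0.91, adjusted p = 0.873 from limma). Single samples moved these estimates. The log2 fold change of *Slc1a2* was 0.21 without siDerl1 sample 3, 0.22 without siControl sample 1 and 0.81 without siDerl1 sample 1, and that of *Gja1* was 0.19 without siControl sample 1. That of *Sparcl1* was 0.19 without siControl sample 1, 0.14 without siDerl1 sample 1, 0.48 without siDerl1 sample 3 and 0.016 without both samples numbered 1.

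*Aqp4*, *Slc4a4* and *Aldh1l1* had a mean under 1 TPM and were not tested. *Aqp4* was at 0.20, 0.11 and 0.09 TPM in siControl samples 1, 2 and 3 and at 0.14, 0.04 and 0.05 TPM in the siDerl1 samples. The groups overlapped. At this level the depth, which is unknown, does not allow a difference to be read. Among the 7 genes tested the median log2 fold change was 0.30, with 6 higher in mean and 1 lower, beside a median of −0.02 for all genes tested, of which 54.8% were lower. In 0 of the 7 were the groups without overlap. Of all genes tested, 5.09% had every siDerl1 sample above every siControl sample and 8.52% had every one below.

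**Figure D2:**
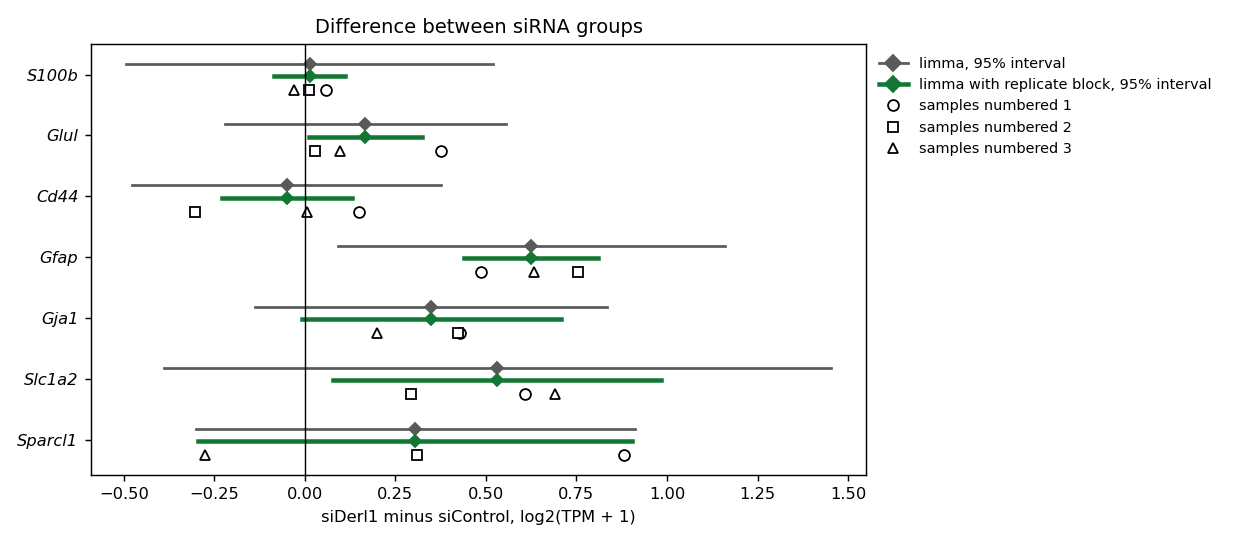
Difference between siDerl1 and siControl NSCs in log2(TPM + 1) (horizontal axis) for the 7 genes tested, as the limma estimate with its 95% interval (grey), the same with the sample number as a block (green) and the difference within each sample number (open symbols). The 3 open symbols of *Gfap* lie between 0.49 and 0.76, while those of *S100b* lie within 0.06 of 0.

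The second question was how the genes varied with the sample number, which the labels give without saying what it marks. *S100b* and *Glul* were highest in the samples numbered 1, *Gfap* was highest in sample 1 within each group, and *Cd44* and *Slc1a2* were lowest in the samples numbered 1. In a limma fit with the siRNA group and the number, 5 of the 7 genes tested had an adjusted p under 0.05 for the number (F test), where 10.6% of all genes tested did. Both samples numbered 1 were above the other 4 in 2 of the 7 and below them in 2, against 15.7% and 17.0% of all genes tested. *S100b* was at 679 and 708 TPM in the samples numbered 1 and at 445 to 467 TPM in the other 4 (adjusted p = 0.000172). *Glul* was likewise highest in both samples numbered 1 (adjusted p = 0.0161). *S100b* and *Glul* were thus set apart in the same samples and in the same direction.

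*Gfap* was highest in sample 1 of each group, by 0.71 on the log2 scale over the mean of samples 2 and 3 in siControl NSCs and by 0.51 in siDerl1 NSCs (adjusted p = 0.00629 for the number). The samples numbered 1 did not all lie above the others, because siControl sample 1 was at 47.0 and siDerl1 sample 2 at 47.5 TPM. *Cd44* and *Slc1a2* went the other way. *Cd44* was at 156 and 173 TPM in the samples numbered 1 and at 188 to 236 TPM in the others (adjusted p = 0.0212), and *Slc1a2* at 1.0 and 2.05 TPM against 2.42 to 5.96 TPM (adjusted p = 0.0414). *Gja1* and *Sparcl1* did not pass (adjusted p = 0.254 and 0.970). Without an intensity trend 1 of the 7 genes passed and without the filter on low values 2 did, while leaving out siControl sample 3 or siDerl1 sample 3 left 3 and 2. With both samples numbered 1 left out, 0 of the 7 differed between numbers 2 and 3 at an adjusted p under 0.05, where 162 of all genes tested did.

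Markers of other cell types were read by number as well. Of the NSC markers, 6 of the 9 tested passed for the number, where 10.6% of all genes tested did. *Vim* and *Slc1a3* were below the other 4 samples in both samples numbered 1, and *Fabp7* was above. Of the oligodendrocyte lineage genes, 2 of the 7 tested passed, *Sox10* and *Pdgfra*. Of the ependymal genes 1 of 3 passed, and 0 of the 4 neuron, 0 of the 2 microglia and 0 of the 1 vascular genes tested did. The summed TPM of the 10 oligodendrocyte lineage genes was 1614, 1459 and 1331 in siControl samples 1, 2 and 3 and 1735, 1485 and 1270 in the siDerl1 samples, highest in sample 1 of each group as with *S100b* and *Glul*. *Sox10*, a transcription factor of the lineage, was at 726 and 787 TPM in the samples numbered 1 and at 541 to 649 TPM in the others (adjusted p = 0.00740). *Mbp*, which encodes a myelin protein, did not pass (adjusted p = 0.123) and in siControl NSCs was lower in sample 1 than in sample 2, at 261 and 295 TPM. *Mog* was listed at 0 throughout. The part of the NSC and oligodendrocyte lineage genes in the differences of *S100b* and *Glul* was not tested. The genes of dividing cells summed to between 1069 and 1300 TPM, and 1 of the 8 passed for the number.

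**Figure D3:**
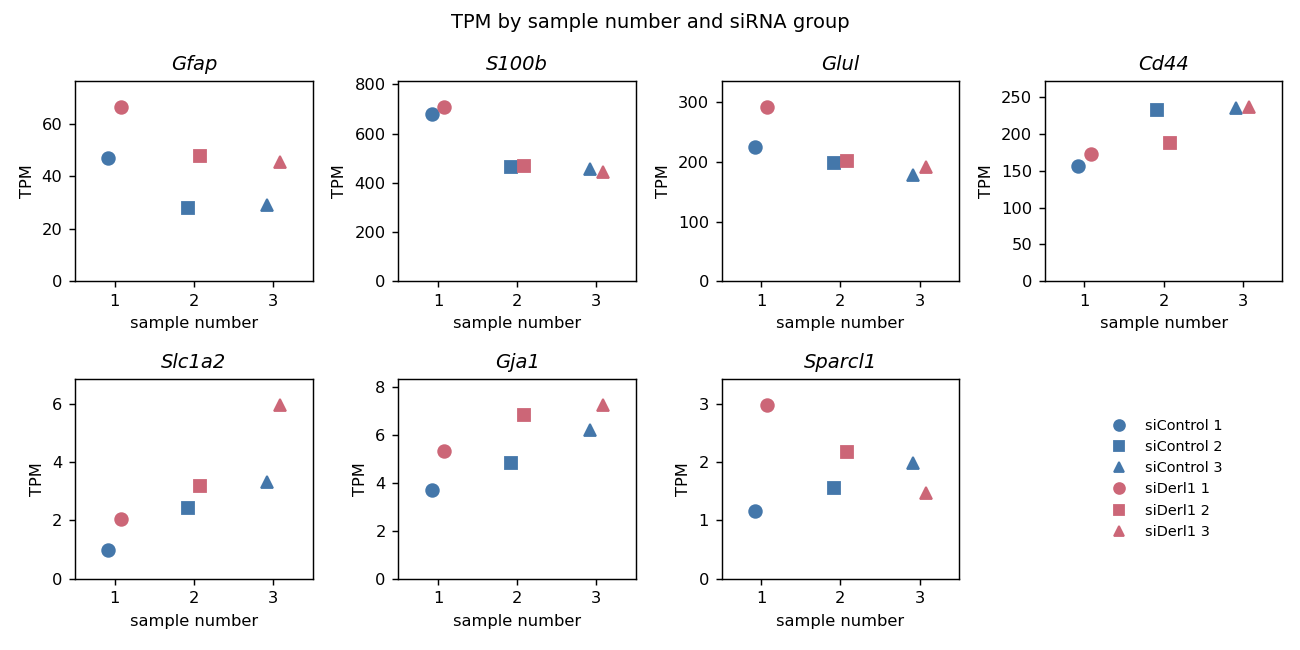
TPM (vertical axis, from 0) of the 7 tested genes by sample number (horizontal axis) and siRNA group (colour). *S100b*, *Glul* and *Gfap* are highest in sample 1 of each group, *Cd44*, *Slc1a2* and *Gja1* are lowest there, and *Gfap* is higher in siDerl1 than in siControl NSCs at each number.

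The surrounding astrocyte genes were read from lists of further markers, filament partners, regulators and related genes, some of which share genes such as *Vim*, *Id3* and *Slc1a3*. None of 24 further astrocyte markers tested, out of 35 in the tables, had an adjusted p under 0.05 between the siRNA groups with or without the block. Their median log2 fold change was 0.04, with 13 higher in mean and 11 lower. By the study's limits 1 was higher and 1 lower, beside 0.532% and 1.37% of all genes tested. *Apoe*, the main lipid carrier of astrocytes, was at 72.9, 114 and 152 TPM in siControl and at 206, 162 and 206 TPM in siDerl1 samples 1, 2 and 3 (log2 fold change 0.81, adjusted p = 0.704 from limma), with no overlap. *F3*, tissue factor, was at 37.6 to 43.2 TPM in siControl and at 30.3 to 31.4 TPM in siDerl1 NSCs (−0.38, adjusted p = 0.669). *Aldoc*, the brain aldolase, was at 626 to 707 TPM in siControl and at 722 to 856 TPM in siDerl1 NSCs, again without overlap (0.25, adjusted p = 0.704).

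These further markers showed the same mixture of levels as the 10 genes. *Aldoc*, *Mfge8* (549 to 725 TPM), *Tril* (377 to 564 TPM) and *Sparc* (324 to 418 TPM) were abundant. In contrast, 9 of the 35 stayed under 1 TPM in every sample, and *Gjb6*, which encodes the astrocyte connexin 30, and *Slc39a12* were listed at 0 in all. The inward rectifier potassium channel *Kcnj10*, found in astrocytes and other glia, was at 30.2 to 53.3 TPM. *Kcnj10* was thus well above *Aqp4*, which shares the endfoot membrane with it.

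By sample number, 9 of the 24 further markers had an adjusted p under 0.05, beside 10.6% of all genes tested, and the direction was again mixed. The samples numbered 1 were below the other 4 in 5 of the 9 and above in 3. Over all 24 further markers, called or not, they were below in 6 and above in 7, beside 17.0% and 15.7% of all genes tested. The genes named next were picked after their values had been seen. *Sox9*, a transcription factor of glial fate, was at 7.5 and 9.42 TPM in the samples numbered 1 and at 34.7 to 38.3 TPM in the others (adjusted p = 3.27e-05 from limma). *Fgfr3*, a growth factor receptor of astrocytes, was at 141 and 144 TPM against 376 to 480 TPM (adjusted p = 5.28e-07). *Gpr37l1*, a receptor of astrocytes, was at 59.0 and 57.3 TPM against 14.7 to 36.3 TPM (adjusted p = 3.54e-05). *Sox9* and *Fgfr3* were thus lowest in the same samples in which *S100b* and *Glul* were highest.

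Of the regulators of astrocyte genes, 26 were tested, and 0 differed between the siRNA groups at an adjusted p under 0.05 or by the study's limits. By those limits 0.532% of all genes tested were higher and 1.37% lower. *Stat3*, which acts on the *Gfap* gene, was at 133 to 178 TPM in siControl and at 137 to 159 TPM in siDerl1 NSCs (log2 fold change −0.02, adjusted p = 0.988). The smallest unadjusted p values were those of *Nfia* (−0.12), *Smad1* (−0.18) and *Nfix* (−0.13), with adjusted p values of 0.769, 0.769 and 0.828 from limma. All 3 were lower in mean in siDerl1 NSCs, with overlapping groups. By sample number 8 of the 26 passed, beside 10.6% of all genes tested. The samples numbered 1 were below the other 4 in 5 of the 8 and above in 1. Over all 26 regulators, called or not, they were below in 8 and above in 7, beside 17.0% and 15.7% of all genes tested. The *Id* genes, direct targets of BMP signalling, were among the 5 that were called and below. *Id1* was at 235 and 259 TPM in the samples numbered 1 and at 418 to 734 TPM in the others (adjusted p = 2.00e-06), and *Id2*, *Id3* and *Id4* were lower there too, with adjusted p values of 2.35e-05, 2.73e-05 and 6.48e-06. *Socs3*, induced by STAT3, was above instead (31.9 and 34.7 against 16.8 to 31.1 TPM, adjusted p = 0.00601). What part the *Id* levels had in the levels of the astrocyte genes was not tested.

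**Figure D4:**
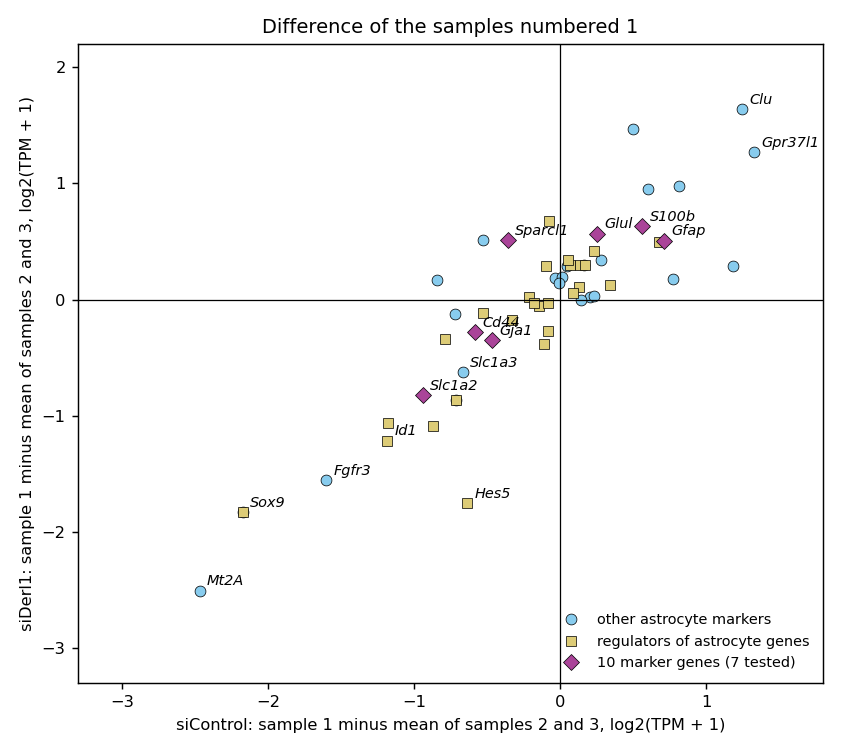
Sample 1 minus the mean of samples 2 and 3 in log2(TPM + 1), in siControl NSCs (horizontal axis) and in siDerl1 NSCs (vertical axis), for the tested genes among the 10 markers, the further astrocyte markers and the regulators. *S100b*, *Glul* and *Gfap* lie in the upper right, and *Slc1a2*, *Cd44*, *Gja1*, *Sox9*, *Fgfr3* and *Id1* in the lower left.

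Glial filaments are built from *Gfap* together with vimentin (*Vim*) and nestin (*Nes*), and the 3 were compared within each sample. *Vim* was by far the most abundant. *Gfap* made up 1.47%, 0.578% and 0.558% of the summed TPM of the 3 genes in siControl samples 1, 2 and 3 and 1.86%, 0.977% and 0.873% in the siDerl1 samples. The share was higher in siDerl1 NSCs within each number, by 0.387, 0.399 and 0.315 percentage points, while the groups overlapped (means 0.870% ± 0.522 and 1.24% ± 0.542, SD, n = 3 each, exact permutation test, two-sided p = 0.5). The difference of the means, 0.367 points, was 0.0555 points without siDerl1 sample 1 and 0.669 points without siControl sample 1. *Nes* itself was at 113 to 137 TPM in siControl and at 99.4 to 111 TPM in siDerl1 NSCs, without overlap (log2 fold change −0.26, adjusted p = 0.704 and 0.0899 with the block). *Vim* was at 3008 and 3386 TPM in the samples numbered 1 and at 4644 to 5044 TPM in the others (adjusted p = 0.000212 for the number). Of the 7 filament genes tested, 0 passed between the siRNA groups by the adjusted p or the study's limits. By those limits 0.532% of all genes tested were higher and 1.37% lower. For the number, *Vim* was the only 1 of the 7 to pass, beside 10.6% of all genes tested. The linker protein gene *Plec* (−0.08) and the lamin gene *Lmna* (−0.11) had the smallest p values after *Nes*, with adjusted p values of 0.879 for both.

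Genes that astrocytes raise on injury were at mixed levels. *Vim*, *S100a10* (536 to 675 TPM) and *Emp1* (88.7 to 148 TPM) were abundant. Of the 31 such genes found, 13 stayed under 1 TPM in every sample. Of the 31, 14 were tested, where 10331 of all 17315 rows were. The median log2 fold change of the 14 was 0.04. *Lcn2*, the secreted iron carrier lipocalin-2, was the only one past the study's limits, at 0.28 to 0.49 TPM in siControl and at 0.98 to 8.47 TPM in siDerl1 NSCs (log2 fold change 1.82, adjusted p = 0.704 from limma, and 0.0817 with the block). Of all genes tested, 0.532% were higher by these limits. With a siControl mean of 0.357 TPM and a siDerl1 mean of 4.77 TPM, *Lcn2* passed the filter on low values only through the group in which it was high. *Sphk1* (−0.49) and *Cp* (0.29) had the next smallest p values, with adjusted p values of 0.763 and 0.806. By number 6 of the 14 passed, beside 10.6% of all genes tested, and *Cxcl10*, an interferon-induced chemokine, was at 3.65 and 4.74 TPM in the samples numbered 1 and at 72.8 to 155 TPM in the others.

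Transporters and channels for glutamate, potassium, bicarbonate and water gave 0 calls between the siRNA groups among 15 tested, with a median of −0.03. Of all genes tested, 0% passed the adjusted p without the block, and 0.532% were higher and 1.37% lower by the study's limits. For the number 4 of the 15 passed, *Slc1a3*, *Glud1*, *Aqp1* and *Aqp9*, beside 10.6% of all genes tested. *Slc4a2*, an anion exchanger, was at 67.1 to 76.1 TPM in siControl and at 60.4 to 65.3 TPM in siDerl1 NSCs, without overlap (−0.21, adjusted p = 0.704). The neutral amino acid transporters *Slc38a3* (0.32) and *Slc1a4* (0.21) had adjusted p values of 0.740 and 0.763. *Slc1a3*, the glutamate transporter GLAST, was at 47.9 to 83.5 TPM, far above *Slc1a2* in each sample. Among the gap junction, cadherin and hyaluronan partners of *Gja1* and *Cd44*, 12 were tested with a median of −0.07. For the number 5 of the 12 passed, and between the siRNA groups 1 was lower with the block, beside 0.358% of all genes tested. This was *Ncan*, a hyaluronan-binding proteoglycan, at 95.1, 226 and 292 TPM in siControl and at 78.3, 179 and 223 TPM in siDerl1 samples 1, 2 and 3 (−0.33, adjusted p = 0.939, and 0.0319 with the block). The fit with the block called 0 genes of any kind without an intensity trend and 2 without the filter on low values. *Cdh2* (−0.15), *Gjc1* (0.52) and *Tjp1* (0.24) had the smallest p values without the block, with adjusted p values of 0.795, 0.822 and 0.828.

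**Figure D5:**
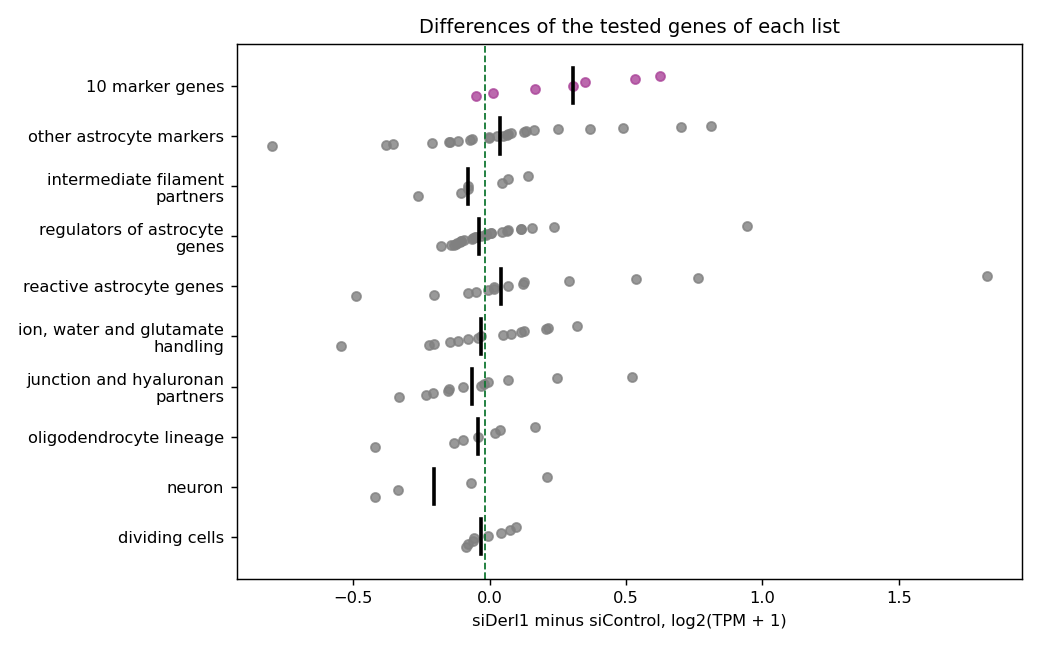
Difference between siDerl1 and siControl NSCs in log2(TPM + 1) (horizontal axis) for the tested genes of each list (points), with the median of the list (black bar) and the median of all genes tested (dashed green line). The 7 tested markers lie between −0.05 and 0.62, and *Lcn2* is the point at 1.82 among the reactive astrocyte genes.

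The pattern of *Gfap* over the 6 samples was compared with that of the 9161 other genes that averaged 5 TPM or more. The 5 genes with the highest Pearson correlation with it in log2(TPM + 1), r between 0.984 and 0.997 over 6 samples, were *Rpl34*, *Pmpcb*, *Smox*, *Podxl2* and *Mpp3*, a ribosomal protein, a subunit of the mitochondrial processing peptidase, spermine oxidase, an endoglycan and a membrane scaffold protein, and none of them was in any of the lists. The differences of *Rpl34* were small beside those of *Gfap*, with 2446 to 2685 TPM in siControl and 2656 to 2827 TPM in siDerl1 NSCs. *Mpp3* was at 4.59 to 7.25 TPM in siControl and at 6.85 to 10.5 TPM in siDerl1 NSCs. The order among so many genes over 6 samples is a description, since the samples numbered 1 stand apart in many of them.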

How the data were processed

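RNA of 6 samples (3 siControl, 3 siDerl1) was sequenced as strand-specific poly(A) libraries. The authors used Trimmomatic 0.39 for trimming and STAR 2.7.3a for mapping (genome rn6), and deposited per-gene TPM values from RSEM 1.3.2, rounded to 2 decimals, per the study's methods and processing notes. TPM sums to 1000000 in each sample and keeps no depth, so a rise of abundant transcripts lowers the rest, and no count model was used. Gene symbols were taken from the tables, where 1048 rows pool several RefSeq transcripts.

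Genes with a mean of at least 1 TPM over all 6 samples (10331 of 17315 rows, 7 of the 10 markers) were tested on log2(TPM + 1) with limma 3.58.1 in R 4.3.3 (moderated test with an intensity trend, Benjamini-Hochberg adjustment over all genes tested), which understates fold changes of low genes. The scripts were tested on simulated data. The number was taken to pair the samples because the deviations from the group means correlated within each number (0.70, 0.35 and 0.51 over the genes tested). Numbers 2 and 3 were hardly told apart, with 0.34 between siControl 2 and siDerl1 3 and 0.25 between siControl 3 and siDerl1 2. The sources do not say what it marks. Single values were compared by exact permutation tests. The 5 motifs were searched on both strands of windows of 300 bases.

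The genes named were the 10 markers, *Derl1*, the 3 genes of each list with the smallest unadjusted p between the groups (of the cell type lists, genes at high TPM), and the 5 genes most like *Gfap*. All others were named after their values had been seen. The markers and lists were chosen with earlier results of these data known. Alternatives were a pseudocount of 0.1, no filter, a mean of at least 5 TPM, median-of-ratios scaling, no intensity trend, the number as a block, *Synm* added to the filament sum, and each sample left out.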

Additional observations from a re-analysis of the deposited data

How the results depend on the processing

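Without the block, leaving out each sample in turn gave 0 genes at an adjusted p under 0.05 between the siRNA groups, 52 to 100 higher and 114 to 252 lower genes by the study's limits, and 0 to 1 of the markers higher (55, 142 and 1 with all samples). With the replicate block, limma called 57 genes, 1 of them a marker, and 116 higher and 249 lower genes passed the study's limits. The block with no intensity trend gave 0 adjusted calls and 104 and 272, the block with no filter 2 adjusted calls and 138 and 314, and leaving out both samples numbered 1 gave 33, with 1 marker, and 139 and 278; these 3 were chosen after seeing the data. A mean of at least 5 TPM left 24 higher genes. *Derl1* stood at −1.03 with the block (adjusted p = 0.00884), with that call lost when the intensity trend (0.229) or the filter (0.104) was dropped, at −0.83 without both samples numbered 1 (adjusted p = 0.00696) and at −1.16 to −0.80 with each sample left out. *Gfap* kept its direction in all fits, at 0.46 to 0.86 with each sample left out.

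Small differences turned with single samples. *S100b* ranged from −0.20 to 0.20 over the samples left out, at −0.07, −0.09 and −0.20 without siControl 2, siControl 3 and siDerl1 1, and at −0.0096 without both samples numbered 1. *Cd44* ranged from −0.24 to 0.052, at 0.042, 0.052 and 0.044 without the same 3 samples. *Glul* ranged from −0.022, without siDerl1 1, to 0.28. These 8 were the only reversals among 103 alternative fits of the markers. The block changed no call among the markers other than that of *Gfap*. The cause was not tested.

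For the sample number, 1092 genes passed with 5 markers. No filter gave 591 with 2, no trend 252 with 1 (*Slc1a2*), leaving out each sample 608 to 1594 with 2 to 5, and leaving out both samples numbered 1 gave 162 with 0. The *Gfap* share of filament transcripts differed by 0.0555 to 0.669 percentage points with each sample left out. TPM keeps no depth, so the precision of the markers under 1 TPM is unknown.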
